A study of Homo sapiens with 6 samples.

Results

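The polo-like kinases are a small family of serine/threonine kinases that drive and pace cell division, and 4 of them, PLK1, PLK2, PLK3 and PLK4, were followed here through the silencing of CREM in CHL-1 cells. CHL-1 is an established human melanoma cell line that carries the fusion gene EWSR1::CREM, which joins part of the RNA-binding protein EWSR1 to CREM, a transcription factor of the cAMP pathway. The 4 genes were picked by symbol among the 21625 genes of the deposited tables, after their change in this contrast was known, so their own values are given as a description with no test. Their mRNA was measured by sequencing in 3 libraries of cells treated with CREM siRNA and in 3 libraries of cells treated with Control siRNA, each at 50 nM and harvested 48 h after transfection.

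The CREM siRNA was a pool directed at the DNA-binding domain of CREM, so it reaches both the fusion transcript and CREM itself. The Control siRNA was a mix of 3 non-targeting siRNAs, and both groups were the same line with the same transfection reagent. The labels of the RPKM values carry the word serum in both groups, and the paper describes culture in medium with fetal bovine serum. Any change of serum before harvest is not described. The methods of the study speak of triplicate experiments, and the column headers number the libraries of each group as experiments. Neither source says whether these were separate cultures. P-values therefore measure only how far these libraries spread, part of which may be technical. Values are RPKM, reads scaled to the library size and to the length of the gene, unless CPM (scaled to the library size alone) or whole reads are named, and only RPKM compares the level of one gene with that of another.

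In textbook terms PLK1 is the mitotic member, needed for entry into mitosis, centrosome maturation, spindle assembly and cytokinesis, and its mRNA and protein peak in G2 and M phase. PLK4 sets off the duplication of centrioles, the cylinders at the core of a centrosome. PLK2 and PLK3 are known as genes induced by growth factors, stress and p53, with roles outside mitosis, PLK2 in centriole duplication and in synapses and PLK3 in stress responses. Human PLK5 lacks a complete kinase domain and is mainly found in brain.

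The libraries held 17221794 to 29793837 reads, with reads in 17569 to 18321 genes. CREM, the targeted gene, was at 2.40, 2.74 and 2.52 RPKM in the CREM siRNA libraries, against 43.4, 46.4 and 46.5 RPKM in the Control siRNA libraries. Its mean was thus 5.62% of the Control siRNA mean, in the direction of the labels, with no overlap between the groups. The fit covered the 12407 genes whose mean over the 6 libraries reached 1 RPKM, and 9102 of them (73.4%) passed an adjusted p of 0.05 in limma, 36.6% of all tested genes as higher and 36.7% as lower in CREM siRNA cells. The 2 groups did not overlap for 76.2% of tested genes, so neither a call nor a gap between the groups sets a gene apart in this experiment. The median log2 fold change over all tested genes was 0.00, and 715 genes were higher and 1098 lower by at least 1 on the log2(RPKM + 1) scale.

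Among the lineage markers, SOX10, the transcription factor of neural crest and melanocytes, averaged 483.3 RPKM in CREM siRNA cells and 302.7 RPKM in Control siRNA cells, while the pigment genes TYR and TYRP1 were below 0.5 RPKM in both groups. DCT, another pigment gene, had the largest difference of that list, at 238.1 RPKM in CREM siRNA cells and 23.97 RPKM in Control siRNA cells (log2 fold change 3.26). Of the 11 melanocyte markers 7 were tested, 6 passed as higher (85.7%, beside 36.6% of all tested genes) and 1 did not pass. Their summed level was 1177 to 1187 RPKM in CREM siRNA libraries and 500.4 to 561.6 RPKM in Control siRNA libraries. The marker that did not pass was PMEL, at 0.372, 0.814 and 8.35 RPKM with CREM siRNA and 0.636, 0.610 and 1.94 RPKM with Control siRNA. MLANA and TYR were above 0 only in library 3 of each group, whereas DCT and TYRP1 were lowest there. The source of this library 3 pattern was not tested. Markers of other cell types were low in sum, and some of them shifted. The 6 leukocyte markers found summed to 0.827 to 1.29 RPKM in CREM siRNA libraries and 1.92 to 2.26 RPKM in Control siRNA libraries. The 5 endothelial markers summed to 0.155 to 0.189 RPKM in CREM siRNA libraries and 3.85 to 4.58 RPKM in Control siRNA libraries. The 8 epithelial markers summed to 13.8 to 15.8 RPKM in CREM siRNA libraries and 7.19 to 7.52 RPKM in Control siRNA libraries. Of 6 markers of undifferentiated melanoma, 4 were tested, 3 passed as higher (75%, beside 36.6%) and 1 as lower (25%, beside 36.7%), and the 6 summed to 621.3 to 636.9 RPKM in CREM siRNA libraries and 400.5 to 416.5 RPKM in Control siRNA libraries. CD3E, PECAM1 and KRT5 had no read in any library, while KDR, an endothelial receptor, averaged 0.129 RPKM in CREM siRNA cells and 4.09 RPKM in Control siRNA cells. ESRP1, an epithelial splicing factor, averaged 12.1 RPKM in CREM siRNA cells and 2.96 RPKM in Control siRNA cells, and PTPRC, the leukocyte antigen CD45, averaged 0.114 RPKM in CREM siRNA cells and 1.28 RPKM in Control siRNA cells. The part of these shifts in the polo-like kinase values was not tested.

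PLK1 was the polo-like kinase with the highest level in Control siRNA cells. It had 6.28, 6.54 and 7.13 RPKM in the CREM siRNA libraries, against 64.0, 67.5 and 66.1 RPKM in the Control siRNA libraries. In whole reads these were 414, 356 and 395 with CREM siRNA and 2471, 3678 and 3500 with Control siRNA. All CREM siRNA libraries lay far below all Control siRNA libraries, and the libraries of each group lay close together. PLK1 averaged 6.65 ± 0.432 RPKM in CREM siRNA cells and 65.9 ± 1.74 RPKM in Control siRNA cells (SD, n = 3 each), so that 10.1% of the Control siRNA level was left. On the log2(RPKM + 1) scale, where the added 1 draws in the change of low genes, the difference was -3.13 with a standard error of 0.0540, and the log2 of the ratio of means was -3.31. Counted from the most negative difference, PLK1 stood at place 61 of the 12407 tested genes. The gene (Entrez 5347) lies on chromosome 16 of GRCh38 from 23678889 to 23690367.

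PLK4 was the polo-like kinase with the smallest share of its level left. It had 0.888, 0.993 and 0.824 RPKM in the CREM siRNA libraries, against 10.8, 11.9 and 11.7 RPKM in the Control siRNA libraries. The whole reads were 105, 97 and 82 with CREM siRNA and 746, 1165 and 1108 with Control siRNA. Here too the groups were wide apart, with every CREM siRNA library under 1 RPKM. The mean was 0.902 ± 0.0852 RPKM in CREM siRNA cells and 11.4 ± 0.599 RPKM in Control siRNA cells (SD, n = 3 each), or 7.88% of the Control siRNA level. The difference on the log2(RPKM + 1) scale was -2.71 with a standard error of 0.0661 (place 127 from the lowest), and the log2 of the ratio of means was -3.67. PLK4 thus lay behind PLK1 on the scale with 1 added and ahead of it by the plain ratio, and the order of these 2 genes depends on that choice. PLK4 (Entrez 10733) lies on chromosome 4 from 127880893 to 127899224.

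PLK3 was lower in CREM siRNA cells by a smaller margin. It had 1.89, 1.60 and 1.72 RPKM in the CREM siRNA libraries, against 3.99, 4.44 and 3.91 RPKM in the Control siRNA libraries. These values rest on 132, 92 and 101 reads with CREM siRNA and on 163, 256 and 219 reads with Control siRNA. The highest CREM siRNA library still lay below the lowest Control siRNA library. PLK3 averaged 1.74 ± 0.148 RPKM in CREM siRNA cells and 4.11 ± 0.285 RPKM in Control siRNA cells (SD, n = 3 each), or 42.2% of the Control siRNA level. The difference was -0.90 on the log2(RPKM + 1) scale with a standard error of 0.0717, at place 1270 from the lowest of all tested genes, and the log2 of the ratio of means was -1.24. PLK3 (Entrez 1263) lies on chromosome 1 from 44800377 to 44805990.

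PLK2 went the other way. It had 32.6, 31.0 and 26.6 RPKM in the CREM siRNA libraries, against 1.02, 0.864 and 0.682 RPKM in the Control siRNA libraries. The Control siRNA values rest on 50, 60 and 46 reads, against 2734, 2151 and 1877 reads with CREM siRNA. Every CREM siRNA library was far above every Control siRNA library, and only 1 Control siRNA library reached 1 RPKM. The mean was 30.04 ± 3.11 RPKM in CREM siRNA cells and 0.854 ± 0.168 RPKM in Control siRNA cells (SD, n = 3 each), a 35.2-fold ratio. The difference was 4.06 on the log2(RPKM + 1) scale with a standard error of 0.0880, and the log2 of the ratio of means was 5.14. Only 4 of the 12407 tested genes had a higher difference, since PLK2 was at place 5 from the highest. PLK2 (Entrez 10769) lies on the minus strand of chromosome 5 from 58453982 to 58460086.

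**Figure D1:**
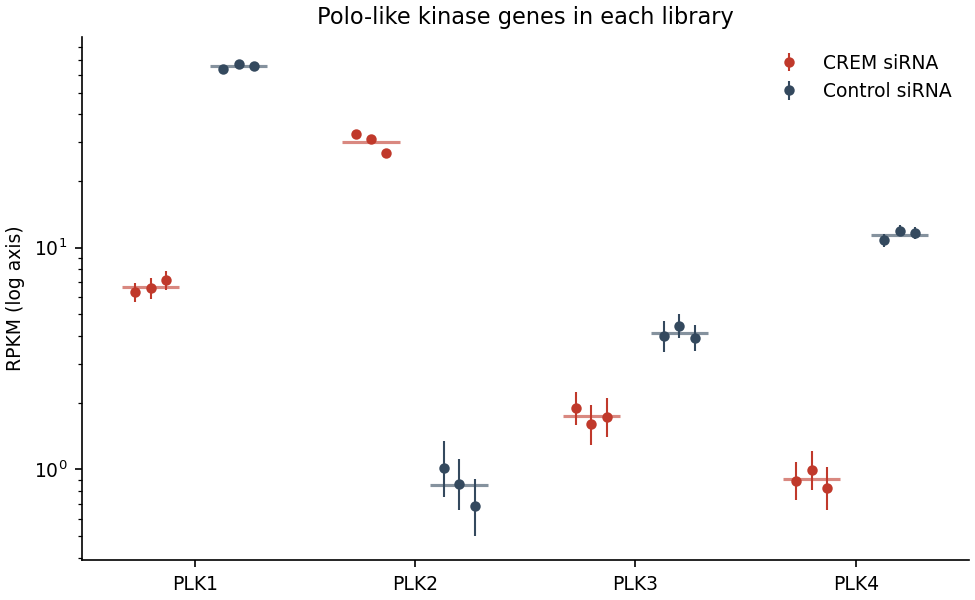
RPKM of PLK1, PLK2, PLK3 and PLK4 in each library on a log axis, with CREM siRNA (red) left of Control siRNA (blue). Points are single libraries, vertical bars are 95% Poisson intervals from the reads of the gene (counting error only) and horizontal lines are group means. For each gene the 3 libraries of one group are clear of the 3 of the other, as for 76.2% of all tested genes.

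PLK5 was at or near 0. It had 0, 1 and 3 reads in the CREM siRNA libraries and 0, 0 and 0 reads in the Control siRNA libraries, too few to be tested or to give a fold. All 4 other family members passed the filter of a mean of 1 RPKM over the 6 libraries. PLK2 and PLK4 passed it only through the group where each was high, because the Control siRNA mean of PLK2 and the CREM siRNA mean of PLK4 were below 1 RPKM. In a bulk culture, fewer cells with a transcript and less of it in each cell cannot be told apart, and this holds for every level given here.

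The spread between libraries was compared with what counting alone would give. For PLK4 in CREM siRNA cells the coefficient of variation was 9.45%, where counting error alone gives 10.3%. For PLK3 it was 8.55% in CREM siRNA cells, with 9.69% from counting, and 6.93% in Control siRNA cells, with 6.95% from counting. PLK2 was the most variable member, at 10.3% in CREM siRNA cells and 19.6% in Control siRNA cells, where counting gives 2.13% and 13.9%. The PLK2 spread in CREM siRNA cells was thus well above counting error, with the library at 26.6 RPKM the lowest.

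The family as a whole changed in makeup more than in sum. The summed RPKM of PLK1 to PLK4 was 41.6, 40.1 and 36.2 in the CREM siRNA libraries, against 79.8, 84.7 and 82.4 in the Control siRNA libraries. In CREM siRNA cells PLK2 held 76.3 ± 2.60% of the sum, and in Control siRNA cells it held 1.04 ± 0.224% (SD, n = 3 each). PLK1 held 17.0 ± 2.37% in CREM siRNA cells and 80.1 ± 0.330% in Control siRNA cells. The leading transcript of the family was therefore PLK2 in all 3 CREM siRNA libraries and PLK1 in all 3 Control siRNA libraries. PLK4 held 2.29 ± 0.171% with CREM siRNA and 13.9 ± 0.358% with Control siRNA, while the share of PLK3 was 4.42 ± 0.400% with CREM siRNA and 4.99 ± 0.247% with Control siRNA. PLK3 was the member whose share differed least.

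**Figure D2:**
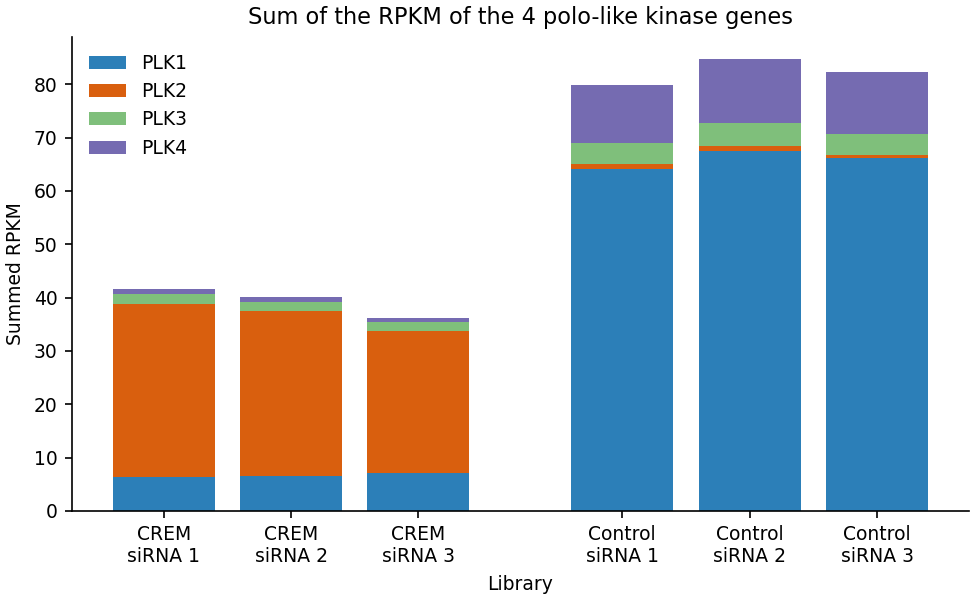
Summed RPKM of the 4 polo-like kinase genes in each library, stacked by gene, with the CREM siRNA libraries left of the Control siRNA libraries. The bars reach 36.2 to 41.6 with CREM siRNA, mostly PLK2, and 79.8 to 84.7 with Control siRNA, mostly PLK1.

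By level the order was PLK2, PLK1, PLK3, PLK4 in CREM siRNA cells and PLK1, PLK4, PLK3, PLK2 in Control siRNA cells. No neighbours in either order overlapped across their 3 libraries. The ratio of PLK2 to PLK1 was 5.18, 4.74 and 3.73 in the CREM siRNA libraries, against 0.0159, 0.0128 and 0.0103 in the Control siRNA libraries. These are ratios of RPKM within one library, so they do not depend on how libraries are scaled. The ratio of PLK1 to PLK4, the 2 genes of dividing cells, was 7.44 ± 1.08 with CREM siRNA and 5.76 ± 0.160 with Control siRNA (SD, n = 3 each). PLK4 was at 0.523 ± 0.0855 of PLK3 with CREM siRNA and at 2.79 ± 0.169 of PLK3 with Control siRNA, so PLK3 stood above PLK4 with CREM siRNA and below it with Control siRNA.

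The start regions of the genes are shown because CREM binds the cAMP response element (CRE, TGACGTCA) and because PLK1 and PLK4 were both low with CREM siRNA while PLK2 was high. The sequences are from RefSeq (GRCh38.p14), 5′ to 3′ on the strand of the gene, and each holds the 100 bases before the annotated start and the start base itself. Capitals mark the letters of the motifs found, which were chosen after the sequences had been seen.
PLK1, chr16:23678789-23678889, plus strand: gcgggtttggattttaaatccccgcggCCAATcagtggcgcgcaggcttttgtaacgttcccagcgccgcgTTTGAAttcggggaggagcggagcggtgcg
PLK4, chr4:127880793-127880893, plus strand: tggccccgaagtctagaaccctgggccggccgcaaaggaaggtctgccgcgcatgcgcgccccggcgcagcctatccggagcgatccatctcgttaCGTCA
PLK2, chr5:58460086-58460186, minus strand: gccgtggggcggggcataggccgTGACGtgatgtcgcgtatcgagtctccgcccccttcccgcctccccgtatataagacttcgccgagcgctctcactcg

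Motifs were searched on both strands of the whole RefSeq window of 300 bases, which runs from 250 bases before the start to 50 after it, and the shares below are of all 35116 such windows. PLK1 held TTTGAA, the cell cycle genes homology region (CHR) bound by the MuvB complex, 29 bases before its start, and CCAAT, the box bound by NF-Y, 73 bases before it. TTTGAA occurred in 15.2% of windows and CCAAT in 34.6%. PLK4 held the CHR letters on the other strand 38 bases after its start, outside the stretch printed. It also held the half-site of the CRE, TGACG, read on the other strand as CGTCA and ending at the start base. A further annotated start of PLK4 had CCAAT on the other strand 86 bases before it. PLK2 held 1 CRE half-site 77 bases before its start, with no CHR or CCAAT, and TGACG occurred in 24.6% of windows. PLK3 held none of these letters in its window. The full CRE (1.85% of windows), the E2F letters TTTCCCGC, TTTGGCGC or TTTCGCGC (2.74%) and the AP-1 letters TGACTCA or TGAGTCA (4.95%) were in no window of the 4 genes. A half-site was thus found both in PLK2, which was higher, and in PLK4, which was lower. These are matches of letters in a short window, and binding was not measured in these libraries.

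Some members share genomic space with other genes, and the sources used here do not say whether counting used strand. PLK1 overlaps an antisense gene by 641 bp and ERN2, on the opposite strand, by 42 bp in GENCODE, and ERN2 had no read in any library. PLK3 overlaps TCTEX1D4, on the opposite strand, by 78 bp, and TCTEX1D4 had 2, 3 and 3 reads with CREM siRNA and 1, 2 and 2 reads with Control siRNA. PLK4 contains a small nuclear RNA pseudogene of 92 bp, and PLK2 overlaps no annotated gene. The reads of the antisense gene at PLK1 were not analysed here.

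Partners, activators and substrates of PLK1 were mostly lower in CREM siRNA cells. Of 38 genes on this list 37 were tested, 32 passed as lower, 4 as higher and 1 did not pass, and the median log2 fold change was -2.30 against 0.00 over all tested genes. The share called lower was 86.5%, beside 36.7% of all tested genes, and the share called higher was 10.8%, beside 36.6%. Lower by at least 1 were 27 genes of the list, beside 1098 of all 12407 tested genes. AURKA, the kinase that switches PLK1 on, had 11.4, 10.2 and 11.8 RPKM in the CREM siRNA libraries, against 60.4, 64.1 and 64.8 RPKM in the Control siRNA libraries (log2 fold change -2.40, limma adjusted p = 5.07e-11). BORA, the cofactor of that step, was at 0.878 ± 0.244 RPKM with CREM siRNA and 4.46 ± 0.151 RPKM with Control siRNA (SD, n = 3 each, log2 fold change -1.55, limma adjusted p = 5.56e-08). The activating pair was thus lower together with PLK1, BORA by less than AURKA on this scale.

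The partners that share the entry into mitosis with PLK1 were lower as well. CDK1, the kinase at the centre of that step, averaged 2.74 RPKM with CREM siRNA and 28.9 RPKM with Control siRNA, with a log2 fold change of -3.00. Its cyclin, CCNB1, averaged 9.91 RPKM with CREM siRNA and 78.6 RPKM with Control siRNA. CDC25C, the phosphatase that activates CDK1 and is a substrate of PLK1, was lower by a log2 fold change of -2.30. The kinases that hold CDK1 back fell too, WEE1 by -2.17 and PKMYT1 by -3.11 on the log2 scale. Activators and inhibitors of CDK1 therefore moved in one direction.

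At the end of mitosis, PRC1, which bundles the midzone spindle and docks PLK1 there, had a log2 fold change of -3.27. CDC20, which turns on the anaphase-promoting complex, had one of -3.41, whereas FZR1, which takes over that role in late mitosis and G1, had one of -0.48. The lowest value on the list was that of MYBL2, a cell cycle transcription factor, at 5.37 ± 0.258 RPKM with CREM siRNA and 69.4 ± 0.580 RPKM with Control siRNA (SD, n = 3 each, log2 fold change -3.47, limma adjusted p = 2.81e-12). The 4 genes that were higher were PPP1R12A, KIZ, FRY and MPLKIP. PPP1R12A, the phosphatase subunit that opposes PLK1, averaged 29.1 ± 1.45 RPKM with CREM siRNA and 18.4 ± 1.06 RPKM with Control siRNA (SD, n = 3 each, log2 fold change 0.64, limma adjusted p = 1.96e-06). KIZ, a substrate at the centrosome, had a log2 fold change of 0.48, FRY one of 0.59 and MPLKIP one of 0.21, and the call of MPLKIP was lost without Control siRNA library 2 (limma adjusted p = 0.0564). TOPORS had a log2 fold change of -0.14 and did not pass (limma adjusted p = 0.0666), and it passed without CREM siRNA library 1 (limma adjusted p = 0.0361).

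The genes of centriole duplication, in which PLK4 acts, were lower less far. Of 35 genes tested, 25 passed as lower (71.4%, beside 36.7% of all tested genes), 2 as higher (5.71%, beside 36.6%) and 8 did not pass. The median log2 fold change was -0.52, and 9 genes were lower by at least 1. STIL, which binds and activates PLK4, had 1.39, 1.12 and 1.25 RPKM in the CREM siRNA libraries, against 8.87, 8.80 and 7.94 RPKM in the Control siRNA libraries (log2 fold change -2.08, limma adjusted p = 6.75e-10). SASS6, which forms the cartwheel of the new centriole, was at 1.49 ± 0.134 RPKM with CREM siRNA and 6.61 ± 0.676 RPKM with Control siRNA (SD, n = 3 each, log2 fold change -1.61, limma adjusted p = 1.21e-08). The trigger and the first building parts of a new centriole were both low in CREM siRNA cells.

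Of the scaffolds that bring PLK4 to the centriole, CEP152 had a log2 fold change of -1.03. CEP192, the other scaffold, had one of -0.19 (limma adjusted p = 0.0103), which became -0.02 with a limma adjusted p of 0.842 when libraries were scaled by GAPDH. CENPJ, which sets centriole length, had -0.61, and CETN3, a centrin, had the lowest value of the list at -2.58 (2.18 ± 0.195 RPKM with CREM siRNA and 18.04 ± 1.09 RPKM with Control siRNA, SD, n = 3 each). Other genes of the list, CEP63, CEP120, CETN2, SPICE1, POC5 and PCM1, did not pass. Their log2 fold changes ran from -0.09 for CEP120 to 0.10 for PCM1. BTRC, the F-box protein that marks PLK4 for degradation, had 5.68, 5.05 and 5.31 RPKM in the CREM siRNA libraries, against 3.01, 3.38 and 3.10 RPKM in the Control siRNA libraries (log2 fold change 0.61, limma adjusted p = 8.80e-06). FBXW11, its paralog, had a log2 fold change of 0.24 (limma adjusted p = 0.00815), and these were the only 2 genes of the list that passed as higher, against 6 when libraries were scaled by GAPDH. TRIM37, a ubiquitin ligase of the centrosome, had a log2 fold change of 0.04 and FBXW5, an F-box protein that targets SASS6, one of 0.02. Neither passed, though both did when libraries were scaled by GAPDH, at 0.22 and 0.20 on the log2 scale (limma adjusted p = 0.0417 and 0.0438).

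**Figure D3:**
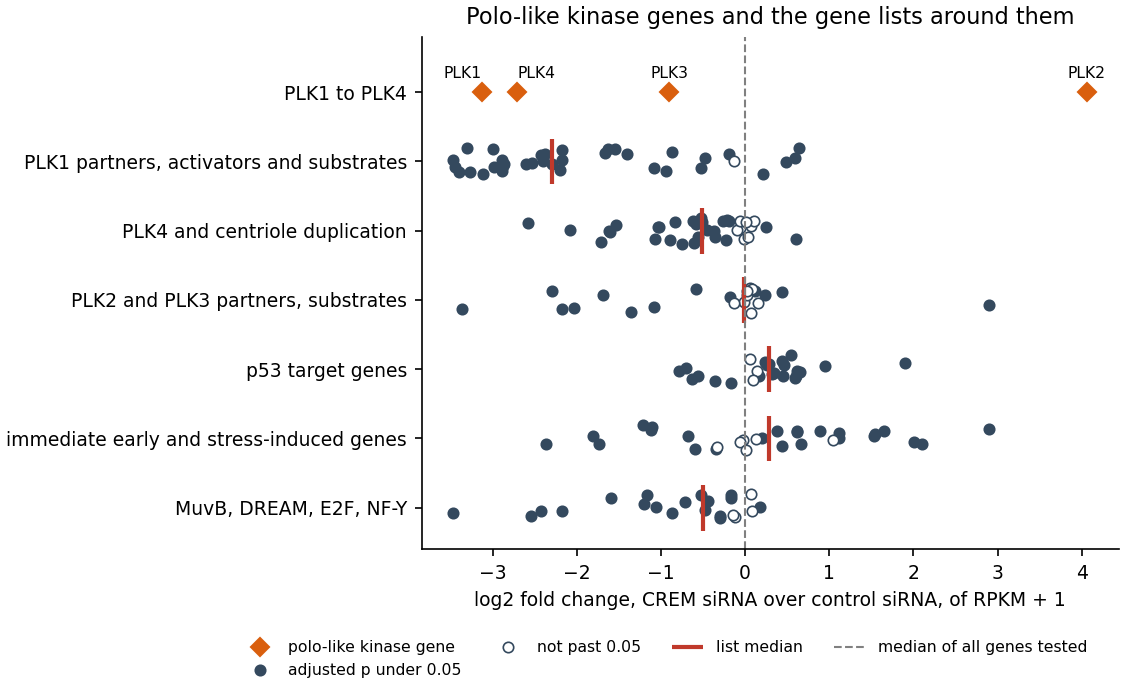
Log2 fold change (CREM siRNA over Control siRNA, of RPKM + 1) of the 4 polo-like kinase genes (diamonds) and of each tested gene of 6 lists, filled where the adjusted p was under 0.05, with list medians in red. Vertical position within a list is spread only for legibility, and the medians run from -2.30 for the PLK1 list to 0.29 for the immediate early list, with all tested genes at 0.00 (dashed).

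The known partners and substrates of PLK2 and PLK3 showed no common direction. Of 24 genes 23 were found and 21 tested, of which 4 passed as higher (19.0%, beside 36.6% of all tested genes), 9 as lower (42.9%, beside 36.7%) and 8 did not pass, and the median log2 fold change was -0.02. With libraries scaled by GAPDH, 9 passed as higher and 8 as lower. JUN, an AP-1 subunit named as a target of PLK3, had 47.8, 43.1 and 45.8 RPKM in the CREM siRNA libraries, against 6.24, 5.24 and 4.46 RPKM in the Control siRNA libraries (log2 fold change 2.89, limma adjusted p = 1.51e-09). FBXW7, an F-box protein, passed as higher at 0.24 and TSC1, a brake on mTOR signalling, at 0.12, and TSC1 (limma adjusted p = 0.0449) did not pass when any of the 6 libraries was left out. The lowest was TOP2A, the topoisomerase of mitotic chromosomes, at -3.37, followed by CDC25C, VRK1 at -2.18 and CDC25A at -2.04. TOP2A and CDC25A are known as genes of dividing cells, and CHEK2, a checkpoint kinase, was at -1.36. HIF1A, the hypoxia factor, had a log2 fold change of -1.08 and CIB1, a calcium-binding partner of PLK2 and PLK3, one of -0.58.

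Some substrates of PLK2 did not pass. SIPA1L1, a synaptic target of PLK2, had a log2 fold change of -0.02 and NPM1, a PLK2 substrate at the centrosome, one of 0.06. With libraries scaled by GAPDH, NPM1 passed as higher, at 0.25 (limma adjusted p = 0.00547).

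Since PLK2 and PLK3 are known targets of p53, other p53 target genes were set beside them. Of 30 genes 29 were found and 25 tested, of which 16 passed as higher (64%, beside 36.6% of all tested genes), 6 as lower (24%, beside 36.7%) and 3 did not pass, with a median log2 fold change of 0.28. TP53I3, an oxidoreductase, was the highest, at 10.2 ± 0.290 RPKM with CREM siRNA and 2.00 ± 0.0915 RPKM with Control siRNA (SD, n = 3 each, log2 fold change 1.90, limma adjusted p = 3.05e-10). ZMAT3, an RNA-binding protein, had a log2 fold change of 0.95 and CCNG1, a cyclin that feeds back on p53, one of 0.59. Lower were MDM2, the ligase that degrades p53, at -0.56, DDB2, a DNA damage sensor, at -0.71 and POLH, a lesion-bypass polymerase, at -0.64. No other gene of the list came near PLK2, whose difference was 4.06, and PLK3 at -0.90 lay below the lowest gene of the list at -0.78.

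PLK2 and PLK3 are also counted among the immediate early genes, which respond within minutes to serum and stress. Serum is named in the labels of both groups, and its part in these values was not tested. Of 34 such genes 30 were tested, of which 15 passed as higher (50%, beside 36.6%), 9 as lower (30%, beside 36.7%) and 6 did not pass, with a median log2 fold change of 0.29. Higher were JUN, ATF3, a stress factor, at 2.10 and NR4A2, an orphan nuclear receptor, at 1.65. Lower were SIK1, a kinase induced by cAMP, at -2.37, DUSP5, a phosphatase of ERK, at -1.21 and NR4A1 at -1.11. The list thus held genes called in both directions. A pair of genes named after their values were seen shows that Control siRNA library 1 stood apart here. EGR1 had 27.4, 20.8 and 22.0 RPKM in the CREM siRNA libraries, against 42.7, 4.90 and 5.38 RPKM in the Control siRNA libraries. FOS had 100.2, 93.6 and 85.2 RPKM in the CREM siRNA libraries, against 49.7, 22.5 and 26.6 RPKM in the Control siRNA libraries. In Control siRNA library 1, the one with the fewest reads, PLK2 was also the highest of its group, at 1.02 RPKM. Its Poisson interval (0.754 to 1.34 RPKM) overlapped those of Control siRNA libraries 2 and 3 (0.659 to 1.11 and 0.499 to 0.909 RPKM). Overlap of intervals cannot decide whether this order of PLK2 goes beyond counting error, and this was not tested. Without Control siRNA library 1 the PLK2 difference was 4.13, and EGR1 passed as higher at 1.98 (limma adjusted p = 4.14e-07). Over all 6 libraries EGR1 did not pass (log2 fold change 1.04, limma adjusted p = 0.369).

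The genes of the MuvB and DREAM complexes with E2F, MYB and NF-Y factors were mostly lower. This list holds regulators of E2F sites as well as of the CHR and CCAAT boxes. Of 22 genes, all tested, 17 passed as lower (77.3%, beside 36.7%), 1 as higher (4.55%, beside 36.6%) and 4 did not pass. With libraries scaled by GAPDH, 13 passed as lower. The median log2 fold change was -0.50, and 8 genes were lower by at least 1. MYBL2, already given, was the lowest, followed by E2F1 at -2.55 and FOXM1 at -2.43, the factors that switch on genes of S phase and of G2 and M phase. E2F1 averaged 2.04 ± 0.0981 RPKM with CREM siRNA and 16.8 ± 0.164 RPKM with Control siRNA (SD, n = 3 each). The NF-Y genes differed little, with NFYA at -0.17, NFYB at -0.29 and NFYC, which did not pass, at 0.07. With libraries scaled by GAPDH they were at 0.01, -0.12 and 0.25 in that order. TFDP2, a dimer partner of the E2Fs, was the gene that passed as higher, at 0.18 (limma adjusted p = 0.0366), with 3 genes higher under GAPDH scaling. Its call was lost without CREM siRNA library 1 or 2 or Control siRNA library 2 or 3 (limma adjusted p = 0.0670 to 0.138). MYBL2 and FOXM1 stand on the PLK1 list as well, CDC25C on the PLK1 and PLK2 lists and JUN on the PLK2 and immediate early lists. CEP192 and NEDD1 stand on both the PLK1 and the centriole list, so the lists are not independent counts.

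For each polo-like kinase the 3 genes with the most similar profile were found among 8643 other genes that averaged 5 RPKM or more, by the Euclidean distance between log2(RPKM + 1) values centred on each gene, over the 6 libraries. With 2 groups this measure mainly finds genes with a like difference between the groups. Nearest to PLK1 were IQGAP3, a scaffold of the cytoskeleton, at a distance of 0.103, NPTX2, a neuronal pentraxin, at 0.133 and BIRC5, the survivin of the chromosomal passenger complex, at 0.136. BIRC5 averaged 4.10 RPKM with CREM siRNA and 41.4 RPKM with Control siRNA. Nearest to PLK4 were TTK, a spindle checkpoint kinase, at 0.112, MAL2, a protein of membrane traffic, at 0.122 and BARX2, a homeobox factor, at 0.123. TTK averaged 2.13 RPKM with CREM siRNA and 19.9 RPKM with Control siRNA.

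The nearest genes of PLK2 lay farther off. BANCR, a long noncoding RNA named for BRAF-mutant melanoma cells, was at a distance of 0.259, with 41.2 RPKM in CREM siRNA cells and 1.44 RPKM in Control siRNA cells. BMF, a pro-apoptotic BCL2-family gene, followed at 0.438, and ENPP2, which encodes autotaxin, at 0.505 with 674.2 RPKM in CREM siRNA cells and 40.5 RPKM in Control siRNA cells. PLK3 had the closest neighbours of the 4, TBC1D1, a GTPase-activating protein, at 0.0604, POLR3B, a subunit of RNA polymerase III, at 0.0694 and ACD, a shelterin subunit, at 0.0802.

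The size of the polo-like kinase differences depended on the scale, and their sign did not under any setting tried. PLK2 ranged from 4.00 without Control siRNA library 3 to 5.16 in edgeR on recovered reads, and PLK1 from -3.32 in DESeq2 to -2.95 with GAPDH scaling. PLK4 ranged from -3.68 in DESeq2 to -2.57 with GAPDH scaling and PLK3 from -1.25 in DESeq2 to -0.76 with GAPDH scaling. GAPDH itself was at 1298, 1310 and 1501 CPM in the CREM siRNA libraries, against 1517, 1591 and 1586 CPM in the Control siRNA libraries. Scaling by GAPDH moved the median of all tested genes to 0.17, with 5809 genes higher and 2967 lower in place of 4544 higher and 4558 lower.

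**Figure D4:**
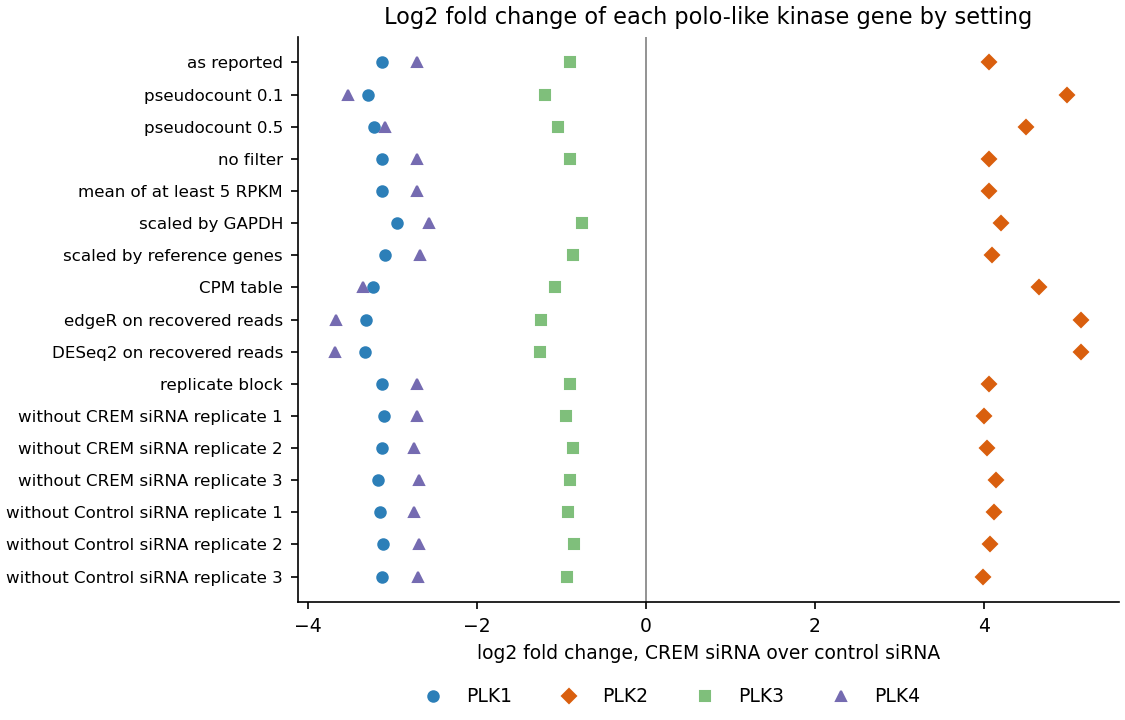
Log2 fold change (CREM siRNA over Control siRNA) of each polo-like kinase gene under each setting, from the values reported (top) to the fits that leave out 1 library (bottom). PLK2 stays between 4.00 and 5.16, the other 3 genes stay below 0, and PLK3 has no point under the filter of 5 RPKM because its mean was lower.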

How the data were processed

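RNA of CHL-1 cells was sequenced (Illumina Stranded mRNA Prep) in 6 libraries, 3 per group by the sample labels. The authors deposited CPM and RPKM values of 21625 genes by Entrez ID, 313 of them without a symbol. Neither table is on a log scale, and GAPDH is not constant in either. The submitters' processing notes name R 3.6.1 and hg38, while the sources used here give no aligner, counting program or use of strand. In the deposited CPM, 100% of values were within 0.001 of a whole number of reads per library, and these reads were recovered. CPM columns sum to between 973557 and 1007039.

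limma 3.58.1 (trend, robust) in R 4.3.3 was fitted to log2(RPKM + 1) where the mean reached 1 RPKM, and p-values were adjusted by Benjamini-Hochberg over all 12407 genes with a threshold of 0.05. The alternatives were pseudocounts of 0.1 and 0.5, no filter or 5 RPKM, scaling by GAPDH or by 11 reference genes, the CPM table, edgeR 4.0.16 and DESeq2 1.42.0 on recovered reads, a replicate block, and leaving out each library. The fits were tested on simulated data.

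The members and the lists were chosen with earlier results of these data known. The text names PLK1 to PLK5, CREM and GAPDH, genes of the PLK1, PLK4 and PLK2/PLK3 lists, up to 6 genes of each other list (per direction, 3 by lowest adjusted p), 3 nearest profiles per member and cell type markers. From those other lists, EGR1, FOS, NFYA, NFYB and NFYC were named outside this rule. Overlaps are from GENCODE, and gene coordinates and promoters are from RefSeq, both GRCh38. Read intervals are 95% Poisson intervals and cover counting error only. The single values of some list genes are not reported here.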

Additional observations from a re-analysis of the deposited data

How the results depend on the processing

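The sign of PLK1, PLK2, PLK3 and PLK4 was the same under each setting tried, and their sizes moved with the scale. With a pseudocount of 0.1 the log2 fold changes were -3.29 for PLK1, 4.99 for PLK2, -1.20 for PLK3 and -3.53 for PLK4, and with 0.5 they were -3.22, 4.50, -1.04 and -3.09 in that order. The CPM table gave -3.23, 4.66, -1.07 and -3.35, edgeR on recovered reads -3.31, 5.16, -1.24 and -3.67, and DESeq2 -3.32, 5.15, -1.25 and -3.68. GAPDH scaling gave -2.95 for PLK1, -0.76 for PLK3 and -2.57 for PLK4. PLK3 could not be fitted under the filter of 5 RPKM. Leaving out each library gave -3.17 to -3.09 for PLK1, 4.00 to 4.15 for PLK2, -0.94 to -0.86 for PLK3 and -2.75 to -2.68 for PLK4.

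Genes called numbered 9102, with 8457 to 8910 when a library was left out, 10688 in edgeR, 10132 in DESeq2 and 9665 with a replicate block. The column headers number the experiments alike in both groups, so same-numbered libraries may come from one experiment. Neither the headers nor the paper state this, and the main fit did not pair the libraries. The deviations of same-numbered libraries correlated at 0.27, -0.04 and 0.14, and those of different-numbered libraries at -0.32 to 0.19. With only 3 libraries per group these values cannot decide whether same-numbered libraries belong together. PMEL and MLANA were highest in library 3 of both groups. The block changed no count of a list by more than 1.5 times. In the centriole list, genes called higher numbered 6 with GAPDH scaling and 1 under the filter of 5 RPKM, where those called lower numbered 12 because fewer genes were tested. The PLK2 and PLK3 list had 9 genes called higher with GAPDH scaling. The MuvB list had 3 called higher with GAPDH scaling, 0 with no filter in limma (1 at an unadjusted p under 0.05, TFDP2, with an adjusted p of 0.0719, against 1 each in edgeR and DESeq2), and 0 to 1 when a library was left out. Of 61 genes checked one by one, most of them from the lists, 52 kept their side of the threshold under all settings that tested them. Some genes named in the text were not among the 61, such as NFYA, NFYB, NFYC, KDR, ESRP1 and PMEL. Depth limits PLK2 in Control siRNA cells (46 to 60 reads) and PLK4 in CREM siRNA cells (82 to 105 reads) most.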
